A study of Mus musculus with 8 samples.

Results

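The genes described here are the insulin-like growth factors Igf1 and Igf2, their receptors Igf1r and Igf2r, and the binding proteins Igfbp2 to Igfbp7. They were taken by symbol, from probe sets that the platform annotation assigns to 1 gene only, and all 10 were found among the 18194 genes measured in this way, with 28 probe sets in all. Expression was measured in the soft tissue of the normal cochlea of 8 CBA/CaJ mice, an inbred strain with good hearing that is much used in hearing research. The tissue held the spiral ligament, the organ of Corti and the modiolus. The ears of each mouse were pooled for 1 array, every mouse was killed with 300 mg/kg urethane and perfused with saline, and the labels give no genetic change, other treatment, age, sex or hybridization date. All 8 arrays form 1 group, so levels and differences between mice are described and no conditions are compared.

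Insulin-like growth factors are secreted relatives of insulin that drive growth and survival. They act through Igf1r, a receptor tyrosine kinase, while Igf2r takes up Igf2 and delivers it to lysosomes. Binding proteins outside the cell hold the ligands and release them when proteases cut the carrier. In the inner ear Igf1 is needed for normal hearing, and its loss causes deafness in mice and humans.

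Every value is an array signal in arbitrary units. A probe set's signal depends on its probes as well as on its target, so members are not ranked by level. A gene was called detected when its brightest probe set exceeded a background threshold on all 8 arrays. The threshold was taken from genes of other organs and of odour and pheromone receptors. By this rule 64% of all genes were detected. All 10 members were detected, as were 18 of 20 genes that identify cochlear tissue; the other two, Tecta (10.5 ± 4.53, SD, n = 8) and Pou4f3 (12.1 ± 8.97), were above background on 0 arrays. Thresholds ranged from 42.6 to 65.1. No pair of arrays held identical values. Mouse 1 stood apart: 33.6% of the detected genes had their highest value in it and 23.9% their lowest, against at most 10.8% and 19.1% in any other mouse. Mouse 5 stood apart in markers of other tissues. It was highest for 7 of 9 measured genes of airway-type epithelium, 8 of 11 of skeletal muscle and 8 of 8 of fat cells. The summed signals of these lists in mouse 5 were 23811, 16516 and 11074, against 1368 to 7810, 3551 to 6854 and 470 to 1765 in the other mice. Single genes weighed heavily in these sums. Pvalb alone gave 3142 of the muscle sum of 3551 in mouse 6 and 6490 of 6854 in mouse 8. Bpifa1 gave 18387 of the airway-type sum in mouse 5. The sums therefore do not measure how much of a tissue each mouse held. By the brightest probe sets, no member was highest in mouse 5, and Igf2 and Igfbp2 were lowest there. A further detected probe set of Igfbp4, 1423757_x_at, was highest in mouse 5, at 1517. Mouse numbers are only names.

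Upstream sequences are shown for the 5 members whose brightest probe set differed most between mouse 1 and the mean of the others. All 10 members were matched to RefSeq windows of the GRCm38.p6 assembly, with 14 windows in all. Each line gives the 200 bases before a listed transcript start, 5′ to 3′ in the direction of the gene. Capitals mark the GC box letters GGGCGG, bound by Sp1-type factors, and the TATA box letters TATAAA, each on either strand. Igf2 has 4 listed starts, and the farthest downstream is shown (chr7:142657497-142657696, minus strand). The others lie at chr1:72824280-72824479 (Igfbp2, plus strand, the upstream of its pair of listed starts), chr15:102143986-102144185 (Igfbp6, plus), chr17:12769707-12769906 (Igf2r, minus) and chr11:99041044-99041243 (Igfbp4, plus).
Igf2: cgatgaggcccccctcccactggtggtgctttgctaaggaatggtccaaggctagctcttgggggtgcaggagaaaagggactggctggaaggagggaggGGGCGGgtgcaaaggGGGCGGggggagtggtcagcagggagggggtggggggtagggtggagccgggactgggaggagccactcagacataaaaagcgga
Igfbp2: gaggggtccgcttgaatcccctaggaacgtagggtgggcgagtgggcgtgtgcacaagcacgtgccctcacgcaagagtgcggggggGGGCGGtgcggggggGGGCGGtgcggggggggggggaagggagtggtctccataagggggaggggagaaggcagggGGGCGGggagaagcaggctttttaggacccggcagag
Igfbp6: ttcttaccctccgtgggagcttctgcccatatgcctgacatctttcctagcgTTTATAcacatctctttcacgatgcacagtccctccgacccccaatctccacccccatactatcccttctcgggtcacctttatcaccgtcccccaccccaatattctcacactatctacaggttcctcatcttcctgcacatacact
Igf2r: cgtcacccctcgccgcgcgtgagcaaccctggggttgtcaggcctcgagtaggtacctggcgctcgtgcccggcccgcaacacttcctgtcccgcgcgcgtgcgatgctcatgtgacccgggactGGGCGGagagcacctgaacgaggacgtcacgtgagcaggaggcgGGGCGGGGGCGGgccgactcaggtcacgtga
Igfbp4: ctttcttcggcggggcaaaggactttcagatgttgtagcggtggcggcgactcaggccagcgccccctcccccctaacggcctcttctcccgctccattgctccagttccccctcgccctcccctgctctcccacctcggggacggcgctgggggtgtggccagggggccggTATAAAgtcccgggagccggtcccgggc

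The GC box letters occurred 3 times each before Igfbp2 and Igf2r and 2 times before this Igf2 start. In the full 250 bases before each start, 6 of the 14 member windows held a GC box and 2 a TATA box, the latter being those of Igfbp4 and Igfbp6. Of all 32851 windows in the table, 32.7% held the GC box letters and 12.4% the TATA box letters. These matches describe letters only. Igfbp2 and Igfbp5 are neighbours on chromosome 1 in this assembly, as are Igf2 and Ins2 on chromosome 7 and Igfbp3 and Igfbp1 on chromosome 11.

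Both ligands were read well above background on every array. The brightest probe set of Igf1 (1452014_a_at) measured 4706 ± 668 (SD, n = 8), with a lowest value of 3920, a median of 4609 and a highest of 6101. The highest was mouse 1, and the other mice lay between 3920 and 4919. The other three Igf1 probe sets had means of 3937 ± 307 (1437401_at), 3700 ± 321 (1434413_at) and 2164 ± 178 (1419519_at, all SD, n = 8), and in all of them mouse 1 was the lowest. In 1434413_at, for example, mouse 1 measured 3141 and the others 3454 to 4116. So the direction in which mouse 1 differed turned with the probe set read.

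Igf2, the fetal growth factor that is expressed from the paternal copy in most tissues, was read by 1448152_at at 1802 ± 346 (SD, n = 8). Mouse 1 measured 2598 and the other mice 1511 to 1939, so that mouse 1 lay at 1.54 times the mean of the others. Without mouse 1 the SD on the log2 scale was 0.12 in place of 0.25. The other Igf2 probe set, 1415931_at, was above background on 0 of 8 arrays, with signals from 2.9 to 32. The antisense transcript Igf2os was likewise above background on 0 arrays (2.5 to 20.3), and Igf1os, which overlaps Igf1 on the opposite strand, was low but above it on all 8 (55.3 to 98.5).

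Of the receptors, Igf1r measured 2154 ± 266 (SD, n = 8) by 1428967_at, from 1823 in mouse 3 through a median of 2112 to 2530 in mouse 6. Mouse 1, at 2132, lay near the middle. Of its 5 probe sets 3 were detected, including 1452982_at at 1029 ± 74.3 (SD, n = 8). 1452108_at exceeded background on 3 arrays and 1446303_at on 0.

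Igf2r, the receptor that binds Igf2 and mannose 6-phosphate tags on lysosomal enzymes, measured 2208 ± 281 (SD, n = 8) by 1424111_at. Mouse 1 was lowest at 1604, and the other mice ranged from 2100 to 2542. Those 7 were close together, with a log2 SD of 0.09. Its other detected probe set, 1424112_at, was dim (130.4 ± 19.7, SD, n = 8) and had its lowest value in mouse 4. Mouse 1 measured 139 there, and the other mice 95.8 to 157. A further probe set that the annotation assigns to both Airn and Igf2r was not used.

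Igfbp5, a carrier that also binds extracellular matrix and bone mineral, had the smallest spread of the members' brightest probe sets. It measured 9533 ± 730 (SD, n = 8) by 1452114_s_at, with a median of 9582 and a range of 8711 to 10475. Its log2 SD of 0.11 lay at percentile 17.5 of the SDs of all detected genes. By 1422313_a_at it ranged from 5393 to 7424. Mouse 8 was highest in both probe sets.

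Igfbp7, a low-affinity member known from vessel walls, was similarly even at 2048 ± 180.3 (SD, n = 8, 1423584_at). It ranged from 1825 in mouse 8 to 2324 in mouse 1, around a median of 2031. Mice 1 and 5 were nearly level, at 2324 and 2258. The other probe sets, 1437804_at and 1423585_at, were dim at 151 to 305 and 62.8 to 111, and mouse 1 was highest in these as well.

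Igfbp2, a carrier abundant in cerebrospinal fluid, was read by 1 probe set at 3319 ± 515 (SD, n = 8). Its lowest value was 2763, its median 3277 and its highest 4383. Mouse 1 held the highest value, and the others did not exceed 3491.

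Igfbp6, which prefers Igf2 over Igf1 as ligand, was also read by 1 probe set, at 473 ± 123 (SD, n = 8). Mouse 1 measured 745 and mouse 4 563, while the other 6 lay between 391 and 442. It had the widest log2 spread of the members, with an SD of 0.33 (percentile 88.2 of all detected genes), which was 0.18 without mouse 1.

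Igfbp4, an inhibitory carrier that is cut by the protease Pappa, measured 2726 ± 525 (SD, n = 8) by 1437405_a_at. Mouse 1 was lowest at 1618, and the other mice ranged from 2545 to 3294. Its 6 probe sets differed in where mouse 1 lay. The next brightest, 1423756_s_at, was even at 2416 ± 194 (SD, n = 8), with mouse 1 at 2416 and the others at 2102 to 2805. The dimmer 1421992_a_at and 1421991_a_at had their highest values in mouse 1 (564 and 177), whereas 1437406_x_at had its lowest there (604).

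Igfbp3, the main carrier in blood, was read at 271 ± 51.9 (SD, n = 8, 1423062_at). Values ran from 206 in mouse 1 through a median of 263 to 339 in mouse 3. Mice 3, 4 and 6 lay at 315 to 339 and the other 5 at 206 to 264. The dimmer 1458268_s_at (83 to 123) had its lowest values in mice 1 and 7, both at 83.

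**Figure D1:**
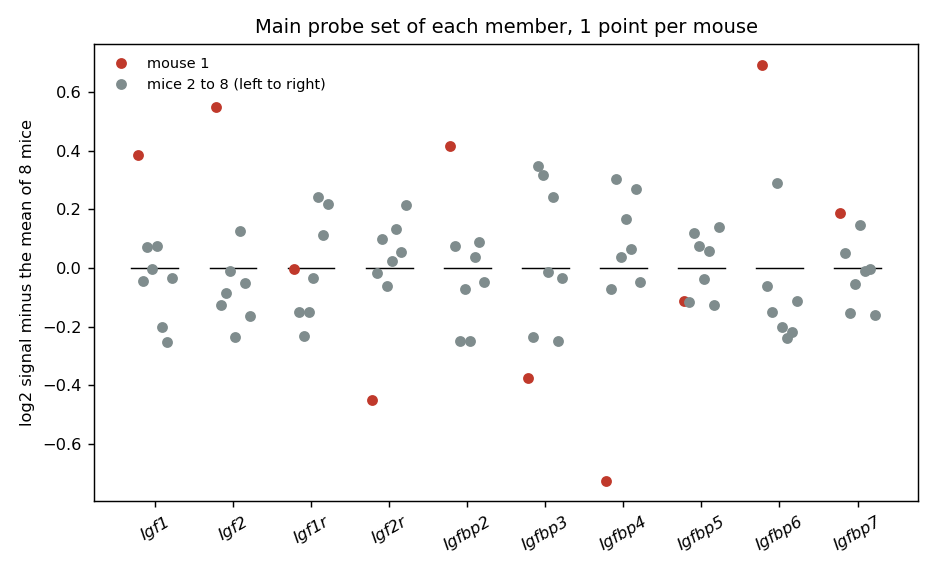
Log2 signal of the brightest probe set of each member minus its mean over the 8 mice (vertical axis, log2 units), by gene (horizontal axis), with 1 point per mouse and mouse 1 in red. Mouse 1 is the highest point for Igf1, Igf2, Igfbp2, Igfbp6 and Igfbp7 and the lowest for Igf2r, Igfbp3 and Igfbp4.

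By their brightest probe sets, mouse 1 was thus highest for 5 members and lowest for 3 of the 10. This is read against all detected genes, of which 57.6% had their highest or lowest value in mouse 1. The median detected gene in mouse 1 lay only 0.05 above its mean over the mice on the log2 scale. Quantile normalization and scaling to equal medians of detected genes kept the sign of mouse 1's difference for each of these 8 members. By the size of the gap to the nearest other mouse, mouse 1 was set apart for 3 members, Igf2, Igf2r and Igfbp4. The shares of all detected genes were 8.63% for mouse 1 and 12.6% for any mouse. Under median scaling mouse 1 was set apart for Igfbp4 alone, and the share of all detected genes was not counted under that scaling. The median log2 SD was 0.21 for the members and 0.18 for all detected genes, and 7 of 10 members lay above the latter. Without mouse 1, 3 of 10 lay above the median of all detected genes, 0.15.

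Whether probe sets of a gene report the same differences between mice was tested for all 4652 genes with at least 2 detected probe sets, by an exact two-sided permutation test of Pearson's r between the 2 brightest. After Benjamini-Hochberg adjustment 4.02% of these genes passed. None of the 7 testable members did, and 1 of them had an unadjusted exact permutation p under 0.05, against 23.7% of all genes tested. That gene was Igfbp3, with r = 0.81 (exact permutation p = 0.0244, adjusted p = 0.153) and Spearman's rho = 0.85 (exact p = 0.0115, n = 8). For Igfbp5 r was 0.72 (exact permutation p = 0.0565, adjusted p = 0.226), and after quantile normalization, adjusted p = 0.0348 by the same exact permutation test. After that normalization 3.22% of all genes tested passed.

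For Igf1, Igf2r and Igfbp4 the 2 brightest probe sets were near 0 or below it, at r = -0.19, -0.030 and 0.040 (adjusted exact permutation p = 0.836, 0.971 and 0.951). Among all genes tested 31.5% had r below 0. Within Igf1, the probe sets 1437401_at and 1434413_at correlated at 0.91 (exact permutation p = 0.00188; adjusted p = 0.0657 over every pair of detected probe sets of all genes, a comparison chosen after seeing the data, in which 0 of 21 pairs of members' probe sets and 1.75% of all pairs passed). The brightest Igf1 probe set correlated with 1434413_at at -0.42 over 8 mice and at 0.41 without mouse 1. In Igfbp4, the brightest and the dimmest probe set correlated at -0.86 (exact permutation p = 0.0057, adjusted p = 0.0968) and at -0.67 without mouse 1. Which transcripts each probe set detects was not tested, since probe sequences were not used here.

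**Figure D2:**
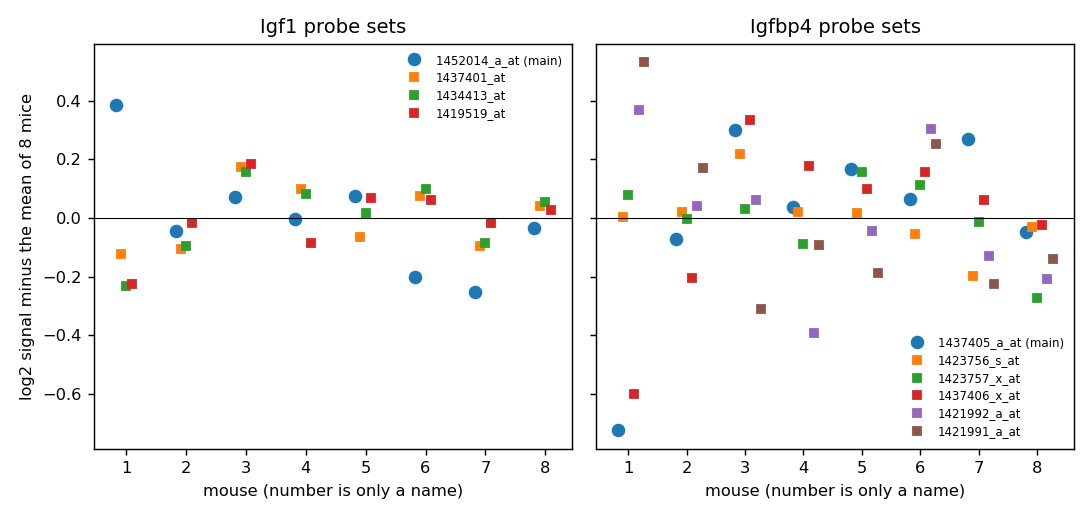
Log2 signal minus its mean over the 8 mice (vertical axis, log2 units) for the 4 probe sets of Igf1 and the 6 of Igfbp4, by mouse (horizontal axis), with 1 point per probe set and mouse. In mouse 1 the brightest Igf1 probe set lies above 0 and the other three below it, and the Igfbp4 probe sets lie on both sides of 0.

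Relations among the members across mice did not pass the test. Each member was correlated with every other detected gene by an exact two-sided permutation test over all pairings of the 8 mice, and after Benjamini-Hochberg adjustment over all 116420 relations 0% passed. Of the 45 pairs of members 0 passed and 11 had an unadjusted exact permutation p under 0.05, or 24.4%, against 16.8% of all relations of members with detected genes. By Spearman's rho 2 pairs did. Without mouse 1, 1 pair had an unadjusted p under 0.05, without mouse 2 there were 7, and without mouse 3 or mouse 4 there were 6. The sign turned without mouse 1 in 16 of the 45 pairs. The matching shares of all relations were not counted by Spearman's rho, with a mouse left out or for turned signs. Mouse 1 held the highest or lowest value of 57.6% of all detected genes. Whether these counts are particular to the members was not tested.

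The ligand Igf2 and the carrier Igfbp2 had r = 0.84 (exact permutation p = 0.0166, adjusted p = 0.240) and Spearman's rho = 0.60 (exact p = 0.132, n = 8). Without the 2 mice farthest from the median of Igf2, mice 1 and 6, r was 0.40, and with all probe sets averaged it was -0.43. Igf2r and Igfbp6 had r = -0.90 (exact permutation p = 0.00873, adjusted p = 0.212) and rho = -0.69 (exact p = 0.0694, n = 8). Their r was -0.80 without mice 1 and 8 and -0.58 without mouse 1. Igf2 and its clearing receptor Igf2r had r = -0.81 over 8 mice (exact permutation p = 0.0676, adjusted p = 0.318), rho = -0.36 (exact p = 0.389), r = -0.36 without mice 1 and 6, and r = 0.033 without mouse 1. That value rested on 1 mouse, and it was -0.50 with all probe sets averaged.

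A pair of relations was nearly as strong without mouse 1, but depended on other choices. Igfbp3 and Igfbp5 had r = 0.82 (exact permutation p = 0.0254, adjusted p = 0.261), rho = 0.69 (exact p = 0.0694, n = 8), r = 0.72 without mice 1 and 3, and r = 0.78 without mouse 1. The same r was 0.49 after quantile normalization and 0.53 with all probe sets of a gene averaged. Igfbp5 and Igfbp7 had r = -0.79 (exact permutation p = 0.0251, adjusted p = 0.260), rho = -0.79 (exact p = 0.0279, n = 8), r = -0.86 without mice 7 and 8, and r = -0.74 without mouse 1, and r = -0.54 after scaling to equal medians. The neighbouring genes Igfbp2 and Igfbp5 had r = -0.58 (exact permutation p = 0.128, adjusted p = 0.378). The only pair with an unadjusted p under 0.05 without mouse 1 was Igf1 with Igfbp2, at r = -0.84 (exact permutation p = 0.0258 over 7 mice) against 0.32 over all 8.

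**Figure D3:**
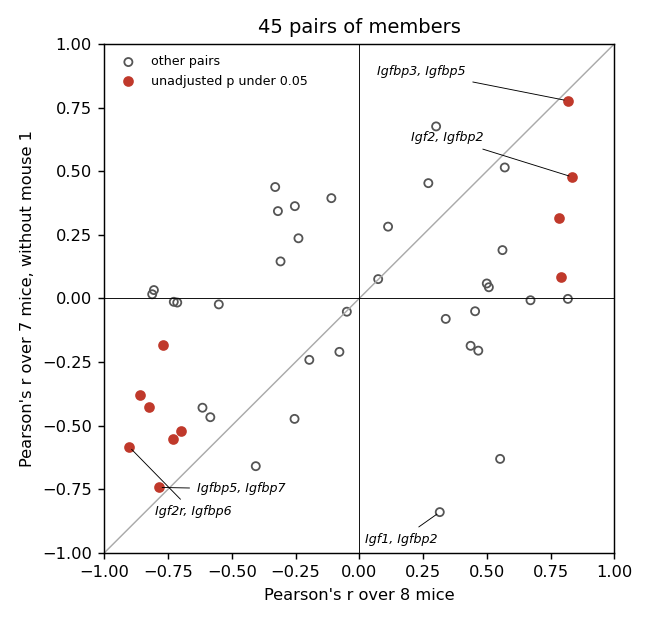
Pearson's r of each of the 45 pairs of members over 8 mice (horizontal axis) and over the 7 mice other than mouse 1 (vertical axis), with pairs of unadjusted exact permutation p under 0.05 over 8 mice in red. The red points for Igfbp3 with Igfbp5 and Igfbp5 with Igfbp7 lie nearest the diagonal, at 0.78 and -0.74 without mouse 1. The median size of r over all 45 pairs is 0.55 with mouse 1 and 0.28 without it. These medians were not computed for relations with all detected genes.

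The genes most like each member across the 8 mice were named by rule, as the 3 detected genes with the highest Pearson's r, and are a description, since none passed (adjusted exact permutation p = 0.112 to 0.216). Every gene was read here by its brightest probe set only. Igf1 was followed by Atp5o (0.98), Pdha1 (0.98) and Mdh1 (0.97). The Igf1 probe set used had r = -0.19, -0.42 and -0.46 with the other Igf1 probe sets, whose closest genes were not sought. Igf2 was followed by the Mediator subunit gene Med4 (0.96), the sulfate transporter gene Slc13a4 (0.95) and Polr3k (0.95), a subunit of RNA polymerase III. Without mouse 1 these values for Igf2 were 0.82, 0.74 and 0.72, the lowest among the genes named by this rule. For Igf1r the closest genes were Phf21a (0.96), the RAS-MAPK kinase gene Braf (0.95) and Sema4b (0.95), and for Igf2r they were Brd1 (0.98), Emc1 (0.98) and Atxn3 (0.98). For the binding proteins the closest gene was Tspan9 for Igfbp2 (0.99), Edil3 for Igfbp3 (0.97), Srsf11 for Igfbp4 (0.99), Arf3 for Igfbp5 (0.99), Fam8a1 for Igfbp6 (0.97) and Ttc4 for Igfbp7 (0.99). The others were Mbd3 (0.98) and Rab13 (0.98) for Igfbp2, Gm19500 (0.96) and the polyamine enzyme gene Odc1 (0.96) for Igfbp3, and the thrombin receptor gene F2r (0.98) and Cenpc1 (0.98) for Igfbp4. Igfbp5 was followed by the non-muscle myosin gene Myh9 (0.98) and Hnrnpk (0.98), Igfbp6 by Ppm1f (0.97) and Slc39a10 (0.96), and Igfbp7 by Sft2d3 (0.99) and Slc45a4 (0.98).

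Cochlear samples can hold different shares of cell types, and in bulk tissue fewer cells of a type and less RNA per cell cannot be told apart. The members were therefore set beside 18 scores, each the mean log2 deviation of the detected markers of a cell type or gene group, and beside 2 array measures, the background threshold and the 3′ to 5′ ratio of control probes. Of 200 such relations 0 passed an exact two-sided permutation test with Benjamini-Hochberg adjustment over all detected genes and scores, where 0% of all 232720 relations passed. At an unadjusted exact permutation p under 0.05 there were 18, or 9%, against 7.51% for all detected genes, a share near that background. Without mouse 1 there were 9, and the share for all detected genes was not counted there.

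The relation with the lowest p among the ligands and carriers was that of Igf1 with strial marginal cells, the cells that secrete potassium into endolymph (r = 0.92, exact permutation p = 0.00402, adjusted p = 0.473). Spearman's rho was 0.64 (exact p = 0.0962, n = 8), and r was 0.43 without mice 1 and 7. All 7 measured marginal cell markers were detected, and the score of 6 of them, which left out Lrp2 as a gene of the pathway, ran from -0.24 in mouse 7 to 0.40 in mouse 1. The 3 other Igf1 probe sets were lowest in mouse 1, where this score was highest. With all probe sets of every gene averaged, those of the markers included, r was 0.060. Igfbp6 was set beside the score of melanocytes and intermediate cells, of whose 9 measured markers 7 were detected (r = 0.88, exact permutation p = 0.00469, adjusted p = 0.483) with rho = 0.76 (exact p = 0.0368, n = 8), r = 0.33 without mice 1 and 4, and r = 0.81 without mouse 1. Igf2r had a negative r with the cartilage score, for which 6 of 10 measured markers were detected (r = -0.86, exact permutation p = 0.00377, adjusted p = 0.470), with rho = -0.83 (exact p = 0.0154, n = 8) and r = -0.51 without mice 1 and 8. This value was -0.29 with detection on at least 4 of 8 arrays, -0.55 with the 99th percentile as background and -0.53 with the median of the markers as score. It was -0.017 with all probe sets of every gene averaged, those of the markers included.

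The score with the lowest p for Igf2 was that of central nervous system glia, for which 4 of 10 measured markers were detected (r = 0.76, exact permutation p = 0.0287, adjusted p = 0.624; rho = 0.31, exact p = 0.462, n = 8). Its r was -0.41 without mice 1 and 6 and 0.60 without mouse 1. The r of Igf2 with the leptomeninges score was also positive (r = 0.68, exact permutation p = 0.0328, adjusted p = 0.633; rho = 0.71, exact p = 0.0576, n = 8), and r was 0.61 without mice 2 and 5. The 10 markers of these membranes around the brain were all detected, and their score ran from -0.46 in mouse 2 to 0.40 in mouse 1. The r of Igfbp3 with the score of dividing cells was positive too (r = 0.82, exact permutation p = 0.0214, adjusted p = 0.600; rho = 0.83, exact p = 0.0154, n = 8), with r = 0.66 without mice 1 and 7. Of 10 measured markers of division 4 were detected. The r of Igfbp2 with the background threshold was negative (r = -0.74, exact permutation p = 0.0275, adjusted p = 0.621; rho = -0.71, exact p = 0.0576, n = 8), with r = -0.84 without mice 1 and 8, and r = -0.44 where the threshold was the 99th percentile. The part of these measures in the members' differences between mice was not tested.

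Other genes of the pathway were taken from lists by role, and 60 of 81 measured genes were detected (74.1%), against 64% of all genes. The counts by role below are read against the same 64%. The median log2 SD of the detected ones was 0.15, against 0.18 for all detected genes. Mouse 1 was highest for 19 of the 60 (31.7%) and lowest for 11 (18.3%), shares near or below those of all detected genes, 33.6% and 23.9%.

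Among the other ligands, receptors and binding proteins 5 of 12 were detected. They included the endocytic receptors Lrp2 (3650 ± 299, SD, n = 8) and Lrp1 (2126 ± 131), the Igfbp-related Kazald1 (1966 ± 424), the insulin receptor Insr (957 ± 60.9) and the matrix protein gene Vtn (595 ± 154.2). Lrp2, Kazald1 and Vtn were highest in mouse 1, at 4234, 2952 and 951. Igfbp1, the liver carrier, was above background on 0 arrays (2.8 to 27.7), as were Ins2, Insl5, Igfbpl1 and Igfals, the subunit that joins Igfbp3 and Igf1 in the blood complex. Insrr was above background on 1 array and Esm1 on 4.

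Of the proteases that release the ligands and their inhibitors 7 of 12 were detected. They included Timp2 (6082 ± 661, SD, n = 8), Adam9 (2915 ± 228) and Mmp2 (1511 ± 241). Pappa, which cuts Igfbp4, was detected (131 ± 23.9, SD, n = 8), while its relative Pappa2 exceeded background on 4 arrays and the Pappa inhibitors Stc1 and Stc2 on 5 and 7. Adam28 was above background in mouse 5 alone, at 203 against 16.3 to 43 in the others. That is the mouse high in airway, muscle and fat markers, whose part in this value was not tested. Plg, the gene of plasminogen, was above background on 0 arrays. Of the RNA-binding regulators of Igf2, 2 of the 3 listed were measured and neither was detected, with Igf2bp3 above background on 4 arrays and Igf2bp1 on 0.

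In the growth hormone axis, which drives Igf1 synthesis in liver, 6 of 10 genes were detected. Socs2, a feedback inhibitor induced by growth hormone (4435 ± 289, SD, n = 8), the growth hormone receptor Ghr (3267 ± 211) and Stat5a (1999 ± 188) were among them. Growth hormone itself, Gh, and Ghrh, Ghrhr and Ghsr were above background on 0 arrays, with no value over 36.7.

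At the receptor 17 of 20 adaptors and inhibitors were detected, including the ubiquitin ligase gene Nedd4 (5744 ± 191, SD, n = 8), the phosphatase gene Ptpn11 (5289 ± 612) and the adaptor gene Gab1 (3854 ± 129). Irs4 was above background on 0 arrays, Socs3 on 5 and Gigyf1 on 7. Every measured gene of the PI3K-AKT-FOXO arm (20 of 20) and of the RAS-MAPK arm (5 of 5) was detected. The former included Gsk3b (5203 ± 386), Foxo3 (4766 ± 333) and Pik3ca (3449 ± 257, SD, n = 8), and the latter were Map2k1 (3866 ± 89.9), Braf (1768 ± 179), Rasa1 (831 ± 151), Map2k2 (666 ± 195) and Nras (488 ± 67.4). These signals do not rank the genes by amount of RNA. Map2k1 varied little between mice, with a log2 SD of 0.03.

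**Figure D4:**
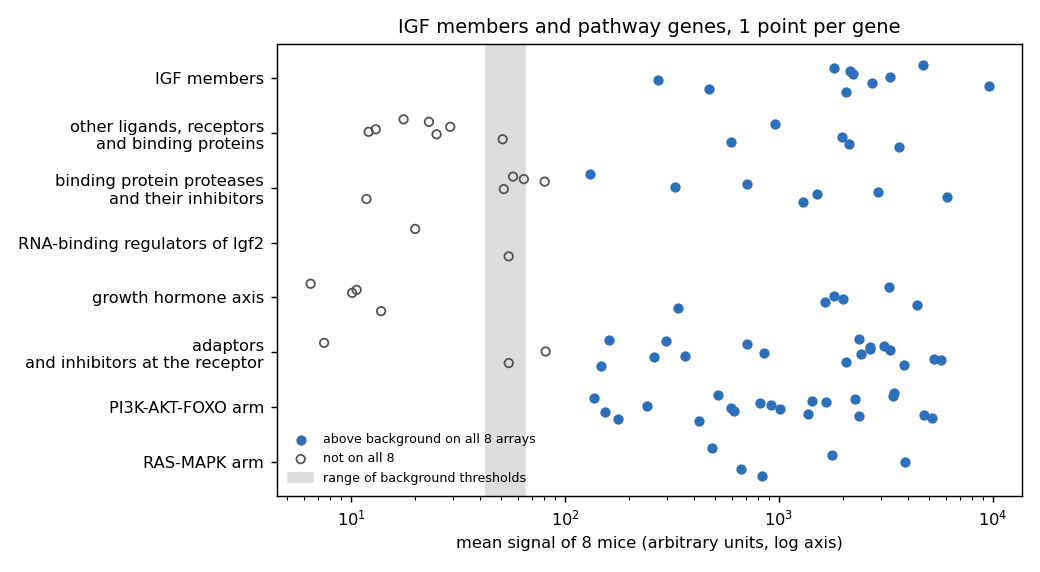
Mean signal over the 8 mice (horizontal axis, arbitrary units, log scale) of the 10 members and the 81 measured pathway genes, by role (vertical axis), with 1 point per gene. Filled points were above background on all 8 arrays, and the grey band spans the thresholds from 42.6 to 65.1. Open points occur in 5 of the 7 pathway roles, and the members and both kinase arms hold filled points only.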

How the data were processed

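Total RNA was amplified, biotin-labelled and hybridized to 1 Affymetrix Mouse 430 2.0 array per mouse. The deposited values are linear signal intensities per probe set, made with MAS5 per the submitters' processing notes. On every array the deposited values averaged 500.0 once the top and bottom 2% were dropped, which is a common target of scaling. The file held 0 other sample columns.

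The platform annotation gives 1 gene for 34958 of the 45101 probe sets, several for 932 and none for 9211, and 34754 were matched by Entrez identifier to RefSeq symbols. The brightest probe set by mean signal stood for its gene, with _x_at probe sets used only in the absence of others, and log2 was taken after raising signals under 1 to 1. For the background threshold of an array, the 95th percentile was taken over the 135 probe sets that read 111 genes of other organs and of odour and pheromone receptors. Of these 111 genes, 4 were themselves detected by the rule, so the set was not wholly free of signal. Scores needed at least 4 detected markers and left out members and pathway genes; _x_at probe sets were left out of the probe set test. The members and gene lists were chosen with earlier results of these data known. Besides the members, genes named are the 3 detected genes of highest probe set signal and those not detected of each pathway role (all where 5 or fewer were detected). That rule for naming ranks no amounts. The 3 genes most like each member are named as well. Pappa, the antisense and neighbouring genes and single marker genes are named outside these rules. Relations named, and the values of mouse 5, were chosen with their values known. The permutation tests were checked on simulated data. Nothing in the labels names separate litters or batches, and 8 arrays limit the precision. The labels do not say how differences between animals and between assays divide, so each p-value covers both. Alternatives are given in the closing section. Software was scipy 1.17.1, numpy 2.4.6, matplotlib 3.10.9 and pandas 2.3.3 under Python 3.11.15.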

Additional observations from a re-analysis of the deposited data

Results flagged for a closer look

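For 3 members the brightest probe set had 1 mouse far from the others, by a gap of more than 0.526 of the whole range on the log2 scale, and it was mouse 1 each time. Igf2 measured 2598 there, with a gap of 0.54 of the range. Igf2r measured 1604, with a gap of 0.59. Igfbp4 measured 1618, with a gap of 0.64. Chance alone sets about 5% of groups apart in this way, and 12.6% of all detected genes were set apart on these arrays, 8.63% by mouse 1. After scaling to equal medians the gap was 0.46 for Igf2 and 0.51 for Igf2r, under the limit, and 0.55 for Igfbp4. Quantile normalization also set Igfbp5 apart (0.62, mouse 1 lowest). The shares of all detected genes set apart were counted for the deposited values only. Other detected probe sets of these genes did not all place mouse 1 alike. In 1424112_at of Igf2r mouse 1 measured 139 and the others 95.8 to 157. For Igfbp4 mouse 1 was lowest in 1437406_x_at too, within the others in 1423756_s_at and 1423757_x_at, and highest in 1421992_a_at and 1421991_a_at. Igf2 had no other detected probe set.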

How the results depend on the processing

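All 10 members were detected under each alternative run, and the pathway genes detected numbered 53 to 67. The share of all genes detected, 64%, was counted under the main rule only. No adjusted test of member pairs or of scores passed under any alternative. After quantile normalization 1 of 7 members, Igfbp5, passed the probe set test, against 3.22% of all genes tested. Pairs at an unadjusted p under 0.05 numbered 11, with 5 when all probe sets of a gene were averaged, 2 by Spearman's rho and 1 to 10 with each mouse left out; the relations to scores numbered 18, with 9 to 26 when a mouse was left out. Averaging probe sets turned the sign for Igf1 with Igfbp6 (-0.17) and Igf2 with Igfbp2 (-0.43), where the undetected Igf2 probe set enters the mean and raises the log2 SD of Igf2 to 0.53. Igf2 with Igf2r ranged from -0.91 to 0.033 with each mouse left out, the latter without mouse 1; the cause was not tested. The scores of dividing cells and of central nervous system glia had too few detected markers to be computed with probe sets averaged or with the 99th percentile as background. The small number of arrays limits all of these counts. No paired analysis was possible because all samples form 1 group.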
